A study of Mus musculus with 6 samples.

Results

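Integrins and the proteins that tie them to actin were examined as a set of 45 genes in fibroblasts of the newborn mouse intestine. The set holds 16 integrin subunits and 29 genes of the focal adhesion plaque and its stress-fibre anchors, chosen by gene name. All 45 were found among the 15238 genes of the deposited gene table, and each had at least 246 estimated counts in every library, so none was lost to a filter on low counts. Bulk RNA came from podoplanin-positive intestinal cells of Balb/c mice, sorted on postnatal day 9 after removal of cells carrying CD45, EpCAM or CD31 (the surface proteins of leukocytes, epithelium and endothelium). The 3 wild-type libraries carry the replicate numbers 1, 3 and 4. The 3 DdblGata1 libraries, with replicate numbers 4, 9 and 10, came from Balb/c pups of the same age that carry the DdblGata1 allele, a deletion in the promoter of Gata1, and lack eosinophils. By its title, the series asks how eosinophils bear on smooth muscle differentiation in the villi after birth.

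Integrins are receptors made of an alpha and a beta subunit that bind extracellular matrix outside the cell. Inside the cell, talin and kindlin bind the beta tail and switch the receptor on, and vinculin, parvin, filamin and alpha-actinin join it to actin filaments. The kinases FAK and Src and LIM-domain proteins such as paxillin, zyxin and Hic-5 gather at the same plaque, which in fibroblasts and smooth muscle cells carries contractile force to the matrix.

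The gene table held 28110454 to 31210800 estimated counts per library, and mitochondrially encoded genes took 3.40% to 5.95% of them. The summed estimate for Gata1 transcripts was 1 count in wild-type 1 and 0 in the other 5 libraries, where a count of 0 allows up to 0.106 CPM at the lowest depth (3 counts, for counting error only), so the deletion could not be checked here. Of the fibroblast markers, 9 of 9 were measured, with a summed level of 111861 to 158951 CPM in wild-type and 111251 to 153063 CPM in DdblGata1 libraries. Most of this sum was collagen RNA: Col1a1, Col1a2 and Col3a1 averaged 35423, 30039 and 58459 CPM in wild-type. Dcn averaged 5376 CPM there, and the smooth muscle markers Myh11 and Acta2 3502 and 3711 CPM. Pdpn, the gene of the sorted surface protein podoplanin, had 25.1 to 53.9 CPM over the libraries. The sum alone therefore does not establish the cell type. Leukocyte markers (7 of 10 measured) summed to 19.1 to 43.7 CPM over the 6 libraries, and the eosinophil genes Siglecf, Epx and Prg2 have no row in the gene table. Epithelial markers (9 of 9 measured) summed to 975 CPM in wild-type 1 and to 185 to 276 CPM in the other 5 libraries, so that library stood apart before any comparison. Whether the libraries are from separate animals is not stated in the labels, and p-values below measure only the spread between these 6 libraries.

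Itgb1 had far more RNA in the sorted cells than any other integrin gene. It encodes the beta subunit shared by all 11 alpha subunits of the set. Levels between genes are given as TPM, which is per transcript length, summed over transcripts that hold at least 50% of the gene's longest coding sequence, called long coding transcripts below. By this measure Itgb1 had 483, 559 and 574 TPM in wild-type 1, 3 and 4, and 531, 607 and 597 TPM in DdblGata1 4, 9 and 10. The 11 alpha genes together summed to 242 ± 18.7 TPM (SD, n = 6), below Itgb1 alone at 558 ± 46.0 TPM. The remaining 4 beta genes summed to 156 ± 11.4 TPM, most of it Itgb5, a partner of the alpha V subunit, at 111 ± 7.75 TPM. The lowest of the 6 libraries for Itgb1 stood above the highest for Itgb5.

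The next integrin genes were close in level. Itga5, the fibronectin receptor subunit, had 52.6 ± 8.65 TPM (SD, n = 6), and Itgav, which pairs with several beta subunits, had 52.3 ± 9.0 TPM. Itgb3 had 39.0 ± 4.01, Itga9 33.0 ± 6.76, the collagen receptor Itga1 27.5 ± 3.58 and the nephronectin receptor Itga8 20.7 ± 3.93 TPM. Each of these neighbours overlapped the next in its library values. Laminin receptors were lower, with 14.1 ± 3.64 TPM for Itga3, 7.56 ± 2.11 for Itga6 and 7.42 ± 1.92 for Itga7. Among collagen receptors, Itga11, a fibroblast subunit, had 13.8 ± 4.24 and Itga2 8.05 ± 2.32 TPM. The lowest levels were those of Itga4, which binds VCAM1 and fibronectin (4.95 ± 0.96 TPM), Itgb4, the partner of Itga6 in epithelial hemidesmosomes (3.97 ± 1.44), and Itgb8, a partner of the alpha V subunit (2.68 ± 0.71).

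**Figure D1:**
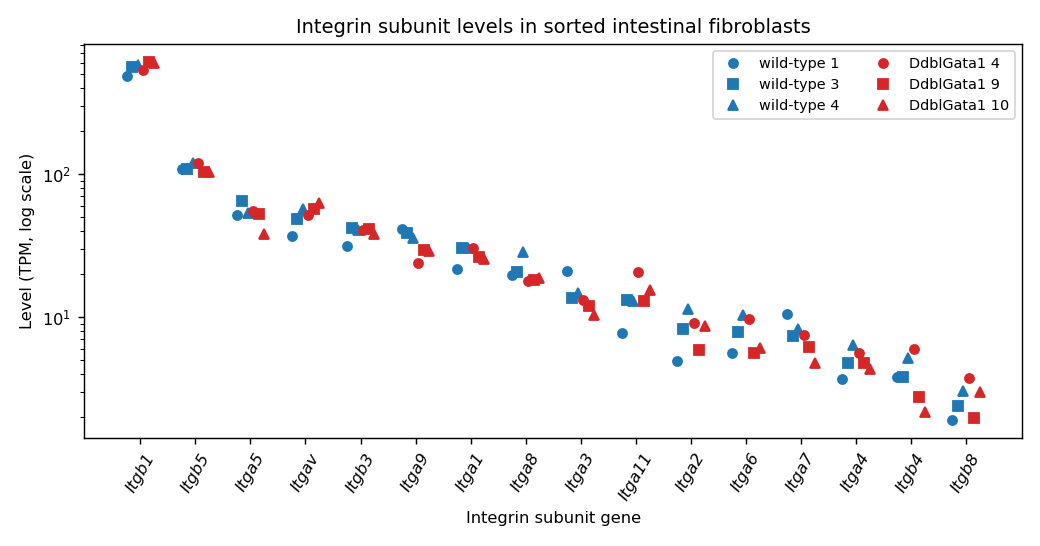
Level of each integrin gene in each library, in TPM on a log axis, for transcripts with at least 50% of the longest coding sequence; blue marks are wild-type and red marks DdblGata1 libraries. Itgb1 lies apart at 483 to 607 TPM, and most other genes form a run of overlapping neighbours.

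How much of a gene's signal came from long coding transcripts differed widely. For Itga6 this share was 10.6%: over all transcripts the gene had 71.5 TPM, of which 77.1% was assigned to a non-coding transcript of 443 bases. The share was also under 50% for Actn4 (39.8%), Lims2 (42.9%), Pdlim7 (43.4%), Flna (44.2%) and Synpo2 (46.6%). For Itgb1 it was 98.4% and for Csrp1 and Itgb3 100%. Values over all transcripts of the genes with a low share therefore rest on how estimated counts were divided between transcripts. For Itga6 the log2 fold change between genotypes (DdblGata1 minus wild-type) was -0.15 ± 0.18 (SE) over all transcripts and -0.20 ± 0.27 in long coding transcripts.

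Within the plaque, Csrp1, a LIM protein that binds alpha-actinin, and Flna, the filamin that crosslinks actin and binds integrin beta tails, had the highest levels, with 671 ± 168 and 438 ± 106 TPM (SD, n = 6). Fhl1 (267 ± 47.7 TPM), Ilk (244 ± 28.2), Parva (152 ± 20.0), Actn1 (145 ± 33.7), Fermt2 (142 ± 9.67), Tgfb1i1 (129 ± 21.4), Vcl (108 ± 15.4), Zyx (107 ± 23.9) and Lima1 (101 ± 20.2) followed. Fermt2 encodes the kindlin of mesenchymal cells, Ilk and Parva the kinase-like scaffold and the parvin that bind each other and the integrin tail. Talin was mainly Tln1, at 83.2 ± 15.8 TPM against 7.71 ± 2.36 for Tln2. Kinases were lower than most structural members, with 30.9 ± 4.62 TPM for Ptk2, which encodes FAK, and 21.9 ± 3.42 for Src. The least abundant of these 29 genes after Tln2 were Bcar1, the scaffold p130Cas, at 16.2 ± 4.02 TPM, and the LIM protein gene Pdlim5 at 18.9 ± 2.95.

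Between genotypes, no gene of the set passed the test across all genes, and the values differed from gene to gene. The alpha-actinin Actn1 had a log2 fold change (DdblGata1 minus wild-type, as in all fold changes below) of -0.58 ± 0.15 (SE, 3 libraries each), the LIM protein Csrp1 of -0.66 ± 0.19 and vinculin (Vcl) of -0.41 ± 0.14. Itgb1 had 0.01 ± 0.17, and Lima1, an actin-bundling LIM protein, had a higher value of 0.40 ± 0.16. By edgeR (quasi-likelihood test), 0 of the 45 genes passed an adjusted p of 0.05, as did 0% of all genes. At an unadjusted p under 0.05, which is a description and not a call, 9 of the 45 were lower in DdblGata1 libraries, where 4.23% of all genes were. These were Actn1, Csrp1, Flna, Tgfb1i1, Itga7, Fhl2, Vcl, Itga9 and Itga8. On the higher side Lima1 alone was under 0.05, where 6.03% of all genes were. DESeq2 called Actn1 and Flna lower and 0 higher, where it called 0.473% of all genes lower and 0.932% higher.

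By value, 34 of the 45 genes were lower in DdblGata1 libraries, against 50.7% of all genes. The median log2 fold change was -0.14, against -0.01 over all genes tested, with a range from -0.86 for Flna to 0.47 for Itga11. Most values were small: 23 of the 45 lay within 0.2 of 0. Wild-type and DdblGata1 values separated fully in 10 genes on the lower side, namely the 9 above and Ilk, where 7.34% of all genes separated that way. Lima1 separated on the higher side, where 8.98% of all genes did. Single libraries moved these values. Without DdblGata1 4 the median was -0.29, 39 genes had a lower value (51.7% of all genes) and 15 of these had an unadjusted p under 0.05 in edgeR (8.2%). Without wild-type 3 the median was -0.092, 28 genes had a lower value (50.3%) and 5 of these were under that p (3.87%). Without DdblGata1 10, 35 genes had a lower value (53.2%), 4 of them under that p (2.47%).

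**Figure D2:**
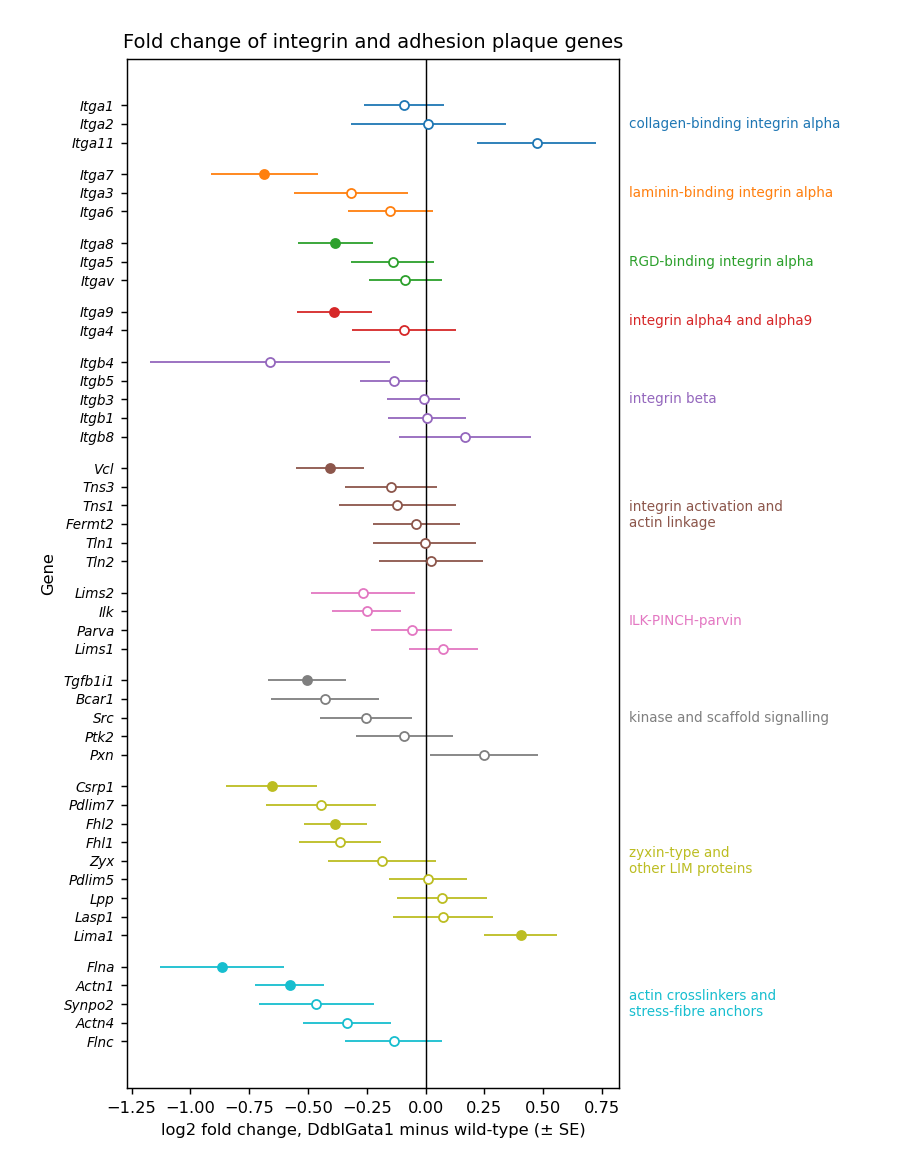
Fitted log2 fold change of each of the 45 genes with its SE, from edgeR, ordered by role; filled points have an unadjusted p under 0.05. Of the 10 filled points, 9 lie on the lower side and 1, Lima1, on the higher side.

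All 5 actin crosslinkers and stress-fibre anchors had lower values (median log2 fold change -0.46). Actn1, an alpha-actinin that bundles actin at the plaque, had 318, 350 and 344 CPM (counts scaled to a common library size) in wild-type 1, 3 and 4. It had 242, 240 and 196 CPM in DdblGata1 4, 9 and 10. Every DdblGata1 library lay below every wild-type library, and DdblGata1 10 was lowest. The log2 fold change was -0.58 ± 0.15 (SE), with an adjusted p of 0.384 by edgeR and 0.0274 by DESeq2. Over the alternatives the adjusted p of Actn1 ran from 0.158 to 0.899 in edgeR and limma-voom and from 0.00393 to 0.175 in DESeq2. In long coding transcripts alone its difference was -0.65 ± 0.15.

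Flna had 5520, 3505 and 2959 CPM in wild-type 1, 3 and 4, and 2169, 2489 and 1926 CPM in DdblGata1 4, 9 and 10. Wild-type 1 stood far above the other wild-type libraries, though the genotypes did not overlap. The log2 fold change was -0.86 ± 0.26 (SE), with an adjusted p of 0.416 by edgeR and 0.0442 by DESeq2 (over the alternatives 0.153 to 0.899 in edgeR and limma-voom and 0.0196 to 0.651 in DESeq2). Without wild-type 1 it was -0.58 and DESeq2 did not call it.

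The transcripts of Flna placed the excess of wild-type 1 mainly in short forms. The 4 long coding transcripts together gave 297, 583 and 528 TPM in wild-type 1, 3 and 4, and 446, 415 and 358 TPM in DdblGata1 4, 9 and 10. Here wild-type 1 was the lowest of the 6 libraries and the genotypes overlapped. All other Flna transcripts together, among them Flna-215, a non-coding transcript of 738 bases, and Flna-214, a coding fragment of 832 bases, took 82.8% of the gene's TPM in wild-type 1 and 39.4% to 50.4% in the other 5 libraries. With plain sums of all transcript counts, not scaled by transcript length, the log2 fold change of Flna was -0.47 (adjusted p 0.369 by edgeR). In long coding transcripts alone it was -0.27 ± 0.27. The size of its difference therefore depends on which transcripts are counted and on the scaling by length.

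The other 3 genes of this group had larger errors relative to their values. Synpo2, the stress-fibre protein synaptopodin-2, had a log2 fold change of -0.46 ± 0.24 (SE), Actn4 of -0.34 ± 0.19 (-0.30 ± 0.20 in long coding transcripts) and Flnc, the muscle filamin, of -0.14 ± 0.21, and all 3 overlapped between genotypes. In long coding transcripts alone Synpo2 was lower at an unadjusted p under 0.05 by edgeR (-0.47 ± 0.18).

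Among the 9 zyxin-type and other LIM proteins, 5 had lower and 4 higher values. Csrp1 had 1015, 1133 and 766 CPM in wild-type 1, 3 and 4, and 612, 685 and 553 CPM in DdblGata1 4, 9 and 10. Its genotypes did not overlap, and wild-type 4 came nearest to the DdblGata1 libraries. The log2 fold change was -0.66 ± 0.19 (SE; adjusted p 0.411 by edgeR), and the same difference in long coding transcripts was -0.64 ± 0.19. DESeq2 did not call Csrp1 over all 6 libraries (adjusted p 0.0574) but did without wild-type 4, with -0.80 and an adjusted p of 0.0146. Over its alternatives the adjusted p was 0.0146 to 0.398 in DESeq2 and 0.212 to 0.899 in edgeR and limma-voom.

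Fhl2, a LIM-only protein that shuttles between adhesions and the nucleus, had 46.9, 48.7 and 42.7 CPM in wild-type 1, 3 and 4. It had 35.2, 36.6 and 34.2 CPM in DdblGata1 4, 9 and 10, a narrow group below all wild-type values. Its log2 fold change was -0.38 ± 0.13 (SE; adjusted p 0.445 by edgeR), between -0.44 and -0.34 in every fit that left out 1 library. Fhl1, its relative, had -0.36 ± 0.18 and overlapped between genotypes. Pdlim7 had -0.44 ± 0.23 over all transcripts and -0.60 ± 0.17 in long coding transcripts, where it was lower at an unadjusted p under 0.05 by edgeR.

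Lima1, also called EPLIN, which bundles actin and slows its turnover, had the highest fold change of this group. It had 192, 210 and 241 CPM in wild-type 1, 3 and 4, and 309, 293 and 249 CPM in DdblGata1 4, 9 and 10. The DdblGata1 libraries were all higher, with 249 CPM in DdblGata1 10 close to 241 CPM in wild-type 4. The log2 fold change was 0.40 ± 0.16 (SE; adjusted p 0.470 by edgeR), and 0.34 ± 0.16 in long coding transcripts, where its unadjusted p was no longer under 0.05. The values of Zyx (-0.19 ± 0.23), Lpp (0.07 ± 0.19), Lasp1 (0.08 ± 0.21) and Pdlim5 (0.01 ± 0.16) were smaller than their SE.

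Among the 5 genes of kinase and scaffold signalling, the one that separated the genotypes was Tgfb1i1, which encodes the paxillin relative Hic-5. It had 297, 284 and 233 CPM in wild-type 1, 3 and 4, and 216, 191 and 167 CPM in DdblGata1 4, 9 and 10. Every DdblGata1 value lay below the wild-type values, with a log2 fold change of -0.50 ± 0.16 (SE; adjusted p 0.435 by edgeR). In long coding transcripts it was -0.31 ± 0.15, and there the genotypes overlapped (119 TPM in wild-type 4, 127 TPM in DdblGata1 9). Intron-retaining forms made up part of its signal in every library. Paxillin itself (Pxn) had a higher value, 0.25 ± 0.23, and -0.04 without DdblGata1 4.

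The kinase genes overlapped between genotypes. Ptk2 had 66.5, 114 and 77.5 CPM in wild-type 1, 3 and 4, and 86.6, 77.3 and 78.6 CPM in DdblGata1 4, 9 and 10. Both the lowest and the highest value were wild-type, and the log2 fold change was -0.09 ± 0.21 (SE), and of 0.17 without wild-type 3. Src had -0.25 ± 0.20 and Bcar1, a substrate of both kinases, -0.43 ± 0.23, and both overlapped between genotypes. RNA levels carry no information on kinase activity.

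Of the 6 genes for integrin activation and actin linkage, 5 had log2 fold changes within 0.2 of 0. The exception was Vcl, vinculin, which binds talin and actin under load, with 382, 423 and 367 CPM in wild-type 1, 3 and 4 and 309, 306 and 270 CPM in DdblGata1 4, 9 and 10. All DdblGata1 values were lower, by -0.41 ± 0.14 (SE; adjusted p 0.447 by edgeR), and the value stayed between -0.45 and -0.35 in every fit that left out 1 library. In long coding transcripts the Vcl difference was -0.29 ± 0.15, and the genotypes overlapped. A transcript of 446 bases (Vcl-202) took 35.8% of the gene's TPM in wild-type 1 and 16.9% to 27.4% in the others.

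Tln1, the talin that couples integrins to vinculin, had 361, 553 and 543 CPM in wild-type 1, 3 and 4, and 581, 454 and 418 CPM in DdblGata1 4, 9 and 10. Its wild-type 1 value was the lowest of the 6, DdblGata1 4 the highest, and the log2 fold change was -0.0046 ± 0.22 (SE), against -0.24 ± 0.21 in long coding transcripts. Kindlin (Fermt2, -0.04 ± 0.18), the tensins Tns1 (-0.12 ± 0.25) and Tns3 (-0.15 ± 0.19) and Tln2 (0.02 ± 0.22) also overlapped.

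In the ILK-PINCH-parvin complex, Ilk had 266, 278 and 269 CPM in wild-type 1, 3 and 4, and 255, 229 and 199 CPM in DdblGata1 4, 9 and 10. The DdblGata1 values were all lower but spread toward the wild-type values, and the log2 fold change of -0.25 ± 0.15 (SE) had an adjusted p of 0.558 by edgeR. Its partners had log2 fold changes of 0.08 ± 0.15 (Lims1, the PINCH-1 adaptor), -0.27 ± 0.22 (Lims2; -0.39 ± 0.18 in long coding transcripts) and -0.06 ± 0.17 (Parva).

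**Figure D3:**
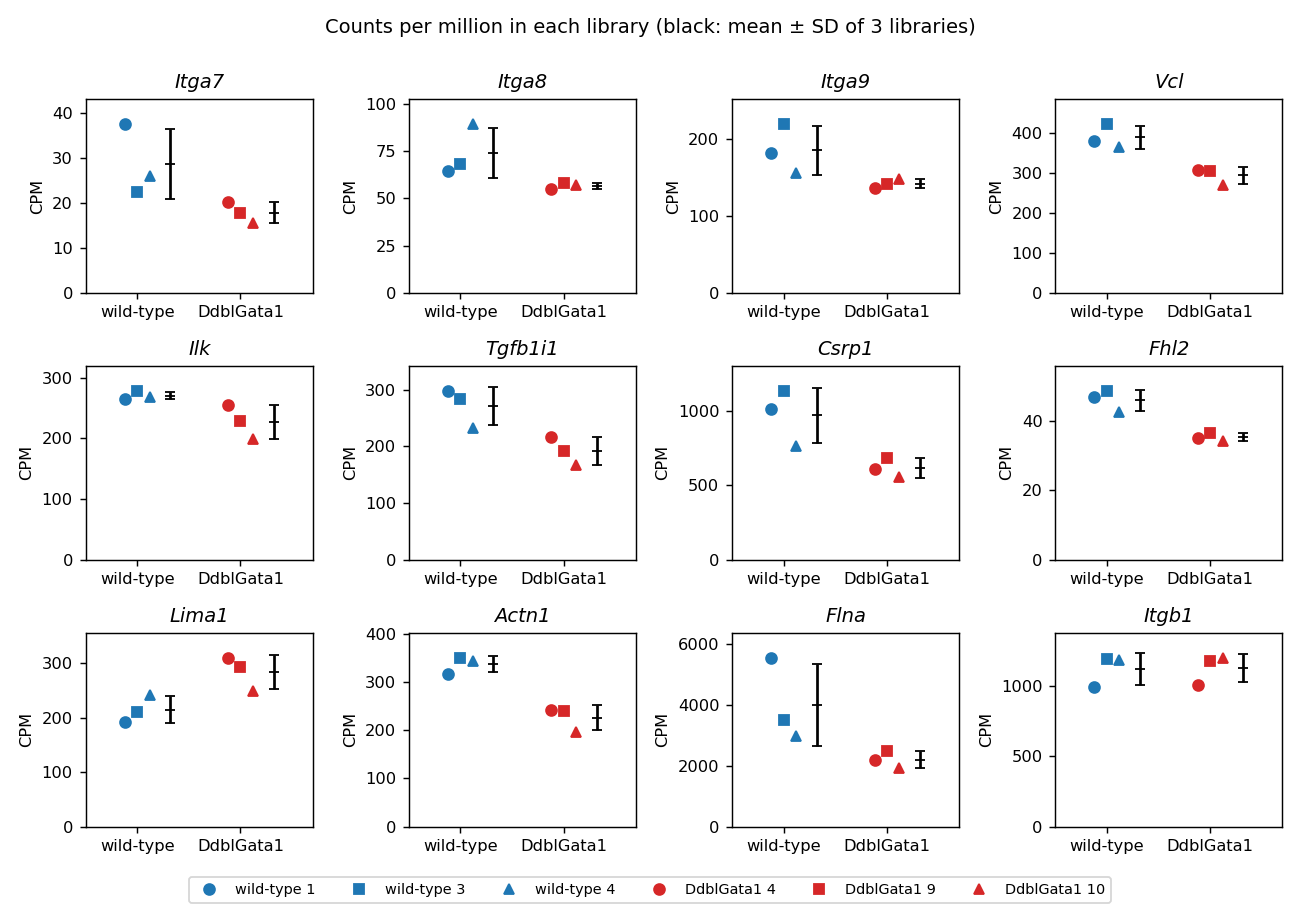
CPM of 12 genes of the set in each library, with the mean and SD of each genotype in black; every axis starts at 0. In the panels for Actn1, Fhl2 and Vcl the DdblGata1 libraries sit below all wild-type libraries, Lima1 shows the opposite order, and Itgb1 overlaps.

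Of the 16 integrin genes, 12 had lower values (median log2 fold change -0.11), against 50.7% of all genes. On the lower side 3 separated the genotypes, where 7.34% of all genes did. Itga7, the laminin receptor best known from skeletal and smooth muscle, had 37.5, 22.5 and 25.9 CPM in wild-type 1, 3 and 4, and 20.1, 17.8 and 15.5 CPM in DdblGata1 4, 9 and 10. Wild-type 1 was again the highest library, and the log2 fold change was -0.69 ± 0.23 (SE; adjusted p 0.436 by edgeR). It was -0.46 without wild-type 1 and reached -0.83 without another library (wild-type 3).

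Itga8, found on smooth muscle and fibroblasts of several organs, had 64.3, 68.5 and 89.2 CPM in wild-type 1, 3 and 4, and 54.9, 58.3 and 56.9 CPM in DdblGata1 4, 9 and 10. The DdblGata1 values were close together and below all wild-type values, of which wild-type 4 stood highest. The log2 fold change was -0.38 ± 0.16 (SE; adjusted p 0.483 by edgeR), and -0.23 without wild-type 4.

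Itga9, a receptor for tenascin-C and other ligands, had 181, 218 and 155 CPM in wild-type 1, 3 and 4, and 136, 141 and 147 CPM in DdblGata1 4, 9 and 10. The log2 fold change was -0.39 ± 0.16 (SE; adjusted p 0.483 by edgeR), and wild-type 4 lay near the DdblGata1 values. Long coding transcripts of Itga9 were further apart, with 41.5, 38.6 and 36.0 TPM in wild-type against 23.9, 29.3 and 28.8 TPM in DdblGata1 libraries in the same order. Their log2 fold change was -0.56 ± 0.15 (SE), which DESeq2 called at an adjusted p of 0.0402 (0.0402 to 0.730 over its alternatives) and edgeR did not (0.342; 0.245 to 0.899 over its alternatives and limma-voom).

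The most abundant integrin gene, Itgb1, had 995, 1191 and 1188 CPM in wild-type 1, 3 and 4, and 1012, 1176 and 1199 CPM in DdblGata1 4, 9 and 10, with a log2 fold change of 0.01 ± 0.17 (SE). Itgav had 181, 211 and 219 CPM in wild-type 1, 3 and 4, and 170, 185 and 220 CPM in DdblGata1 4, 9 and 10 (-0.09 ± 0.16 over all transcripts and 0.22 ± 0.17 in long coding transcripts, so its sign depends on the transcripts counted). Both genes overlapped between genotypes. Itga5 (-0.14 ± 0.18, and -0.29 ± 0.17 in long coding transcripts), Itgb5 (-0.14 ± 0.15), Itgb3 (-0.01 ± 0.15), Itga1 (-0.09 ± 0.17) and Itga4 (-0.09 ± 0.22) overlapped too.

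Collagen receptors pointed in no common direction, with 0.47 ± 0.25 (log2 fold change and SE) for Itga11 and 0.01 ± 0.33 for Itga2. Itga11 had its lowest value in wild-type 1 (26.9 CPM) and its highest in DdblGata1 4 (66.8 CPM), with the other 4 libraries between 42.1 and 54.8 CPM. Itga3 had -0.32 ± 0.24 over all transcripts and -0.54 ± 0.17 in long coding transcripts, where wild-type 1 had the highest level, 20.9 TPM. Wild-type 1 is also the library with the most epithelial marker RNA, and Itga3 is known from epithelium; their part in the result was not tested. Itgb4, the partner of Itga6 in hemidesmosomes, had 12.4, 19.7 and 35.8 CPM in wild-type 1, 3 and 4. It had 25.3, 9.70 and 7.94 CPM in DdblGata1 4, 9 and 10. Its value in wild-type 1, the library with the most epithelial marker RNA, was the lowest of the wild-type values. Its spread within each genotype exceeded the difference between them (-0.66 ± 0.51), which was -1.36 without DdblGata1 4 and -0.16 without wild-type 4.

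Counted over long coding transcripts alone, a count chosen after the data were seen, 9 of the 45 genes were lower at an unadjusted p under 0.05 by edgeR, where 4.8% of all genes were, and 0 were higher, where 6.76% were. Actn1, Csrp1, Fhl2, Itga7, Itga8 and Itga9 were under 0.05 both ways. For Csrp1 and Fhl2 long coding transcripts were 100% of the TPM, so both ways count the same transcripts. Flna, Vcl, Tgfb1i1 and Lima1 were under 0.05 over all transcripts only, and Itga3, Pdlim7 and Synpo2 in long coding transcripts only. DESeq2 on these counts called Actn1, Csrp1 and Itga9 lower, where it called 0.637% of all genes lower.

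Csrp1 also differed between libraries in how its estimated counts were divided between transcripts with different annotated starts. Starts were not measured, so the shares below rest on that division. The 2 annotated Csrp1 transcripts above 5 TPM carry coding sequences of 579 bases each and start at different first exons. Csrp1-201, which starts at the downstream exon, made up 5.95%, 0.21% and 1.98% of the gene's TPM in wild-type 1, 3 and 4. In DdblGata1 4, 9 and 10 it made up 5.85%, 57.6% and 39.6%. DdblGata1 9 and 10 therefore stood apart, while DdblGata1 4 lay among the wild-type libraries, and the genotypes overlapped. Csrp1-202, from the upstream exon, had 786, 900 and 649 TPM in wild-type 1, 3 and 4, and 515, 258 and 284 TPM in DdblGata1 4, 9 and 10. It was lower in every DdblGata1 library, and transcript shares were not tested. The stretches of 100 bases that end 30 bases before each start are shown. They give sequence upstream of each start, without the 30 bases nearest to it. They are given 5′ to 3′ on the plus strand from RefSeq (GRCm38.p6), in lower case throughout since the motif described next was in neither.
Csrp1, upstream start, chr1:135719933-135720032: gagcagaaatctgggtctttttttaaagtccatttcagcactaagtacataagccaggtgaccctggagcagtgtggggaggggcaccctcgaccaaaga
Csrp1, downstream start, chr1:135729037-135729136: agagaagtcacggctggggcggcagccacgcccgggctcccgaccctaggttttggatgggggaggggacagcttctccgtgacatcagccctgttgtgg

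**Figure D4:**
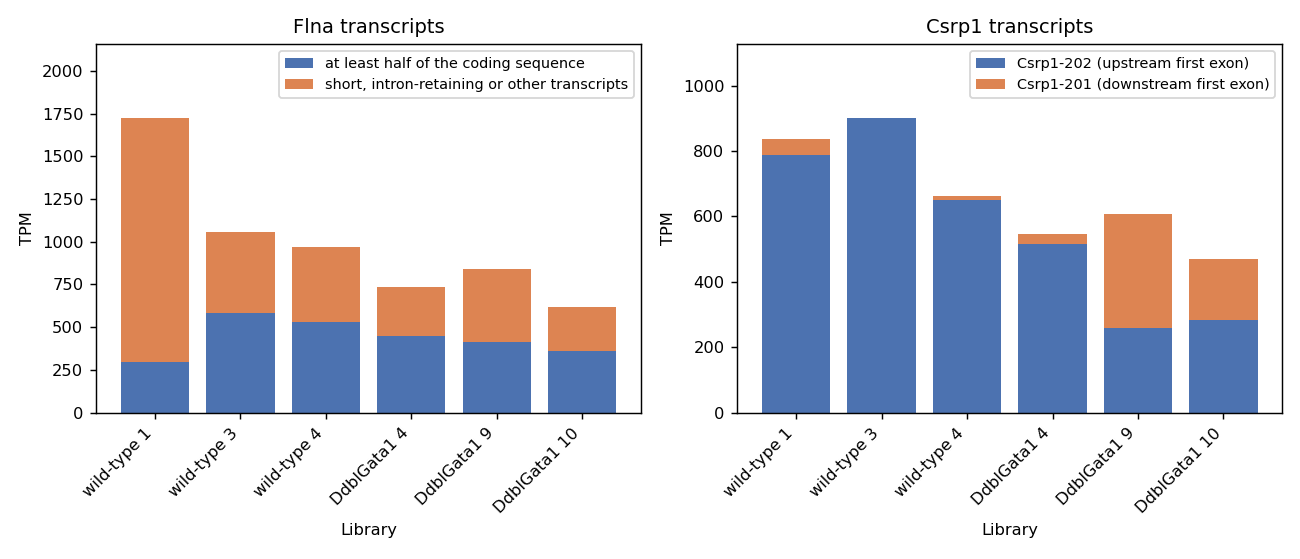
TPM of transcript groups of Flna (left) and of the Csrp1 transcripts (right) in each library, stacked. For Flna the part with most of the coding sequence is smallest in wild-type 1, at 297 TPM, where the whole bar is tallest. For Csrp1 the part assigned to the transcript with the downstream start is large in DdblGata1 9 and 10 only.

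Serum response factor, the transcription factor that binds the CArG box and is known to control many actin and adhesion genes, had a lower RNA level in the same libraries. Srf had 85.4, 67.2 and 66.8 CPM in wild-type 1, 3 and 4, and 48.1, 43.6 and 35.0 CPM in DdblGata1 4, 9 and 10. All DdblGata1 values lay below all wild-type values, with a log2 fold change of -0.79 ± 0.18 (SE). Long coding transcripts, which made up 55.8% of the TPM of Srf, gave -0.52 ± 0.19, and there wild-type 4 (27.8 TPM) and DdblGata1 4 (28.1 TPM) overlapped. The adjusted p was 0.384 by edgeR and 0.0146 by DESeq2, and over the alternatives 0.152 to 0.899 in edgeR and limma-voom and 0.00157 to 0.220 in DESeq2.

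RefSeq promoter windows (250 bases before to 50 bases after the start, GRCm38.p6) were matched to 35 of the 45 genes. The genes without an entry were Itga6, Ptk2, Pxn, Lims2, Parva, Itgb3, Itga7, Tln2, Itgb4 and Tgfb1i1. A CArG box, searched on both strands, lay in the windows of 5 of the 35 genes, or 14.3%, against 1.81% of all genes with a window. These were Fhl2, Vcl, Fermt2, Lima1 and Fhl1, and Fhl2 had a box at each of its windows. They are printed to show the matched letters. The log2 fold changes were -0.38 ± 0.13 (SE) for Fhl2, -0.41 ± 0.14 for Vcl and -0.36 ± 0.18 for Fhl1. They were -0.04 ± 0.18 for Fermt2 and 0.40 ± 0.16 for Lima1, and Fermt2 and Fhl1 overlapped between genotypes. The part of Srf in these values was not tested. A match describes letters in a window and is not evidence of binding, and no match says nothing about the factor. Each line gives 30 bases 5′ to 3′ on the strand of the gene, with the CArG box in capitals.
Fhl2, first window, chr1:43196838-43196867: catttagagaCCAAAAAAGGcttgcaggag
Fhl2, second window, chr1:43163973-43164002: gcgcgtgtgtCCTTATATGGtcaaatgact
Vcl, chr14:20929161-20929190: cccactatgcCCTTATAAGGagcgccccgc
Fermt2, chr14:45530250-45530279: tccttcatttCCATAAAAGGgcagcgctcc
Lima1, chr15:99820177-99820206: ctcactttgtCCTTATAAGGctatcctgtt
Fhl1, chrX:56779571-56779600: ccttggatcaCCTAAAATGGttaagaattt

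Across the set, libraries differed from each other in ways that did not follow genotype. DdblGata1 4 was the highest library of its genotype in 32 of the 45 genes, and wild-type 1 was the lowest of its genotype in 32. DdblGata1 10 was the lowest of all 6 libraries in 19 genes. The mean log2 CPM of the 45 genes was 7.06, 7.28 and 7.23 in wild-type 1, 3 and 4, and 7.18, 6.93 and 6.89 in DdblGata1 4, 9 and 10. On this mean DdblGata1 4 lay among the wild-type libraries and wild-type 1 between them and the other DdblGata1 libraries. By DESeq2 without DdblGata1 4, 7 of the 45 genes were called lower: Itgb4, Vcl, Tgfb1i1, Csrp1, Actn1, Actn4 and Flna, where 3.2% of all genes were. Csrp1 and Flna were called lower without wild-type 4, where 0.545% of all genes were, and DESeq2 called 0 of the 45 without any 1 of the other 4 libraries.

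**Figure D5:**
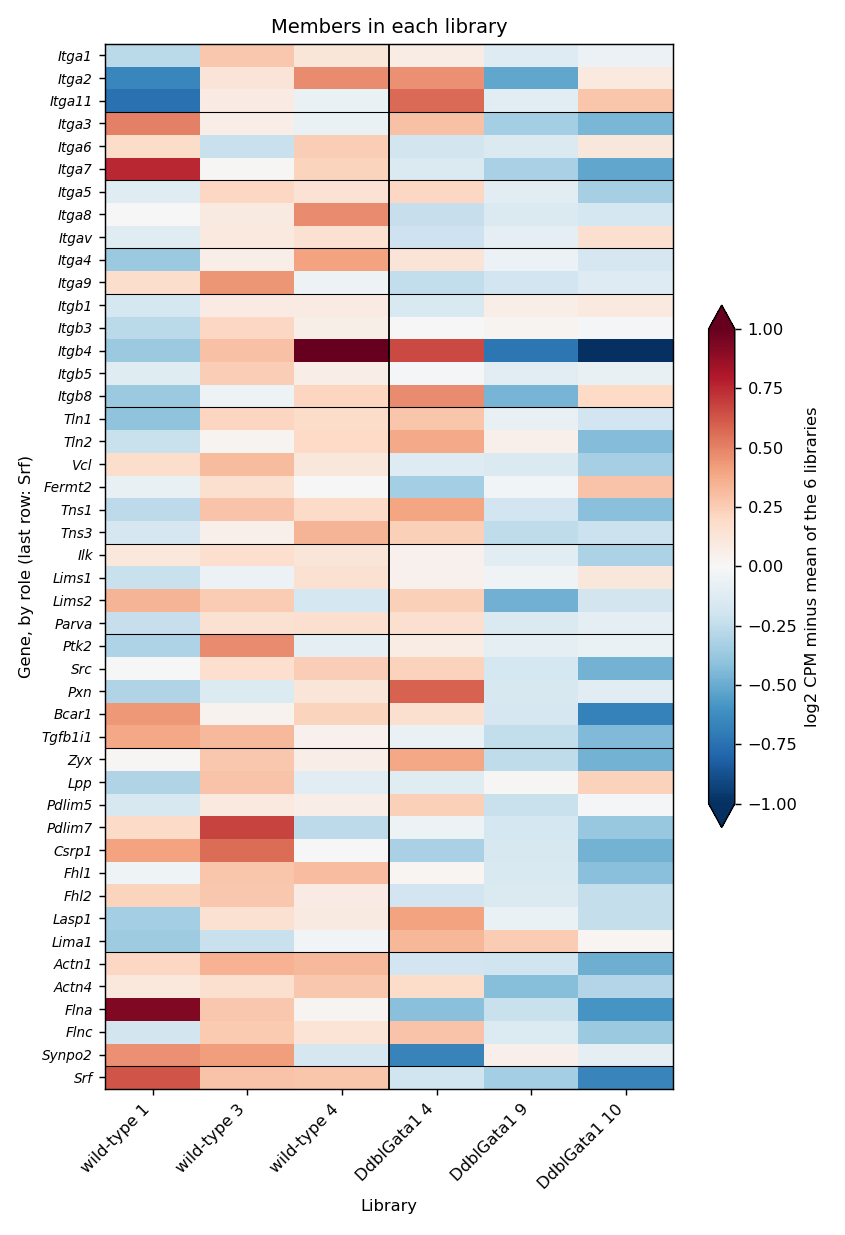
Log2 CPM of each gene of the set in each library, minus its mean over the 6 libraries; rows are grouped by role, the last row is Srf, the color scale ends at -1 and 1, and the vertical line divides wild-type from DdblGata1. DdblGata1 4 shows higher values in most rows than DdblGata1 9 and 10, and Actn1, Fhl2, Vcl and Csrp1 are lower in all 3 DdblGata1 columns.

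Markers of other cell types moved with part of the set. All 14 smooth muscle markers were measured and all 14 were lower by value in DdblGata1, at a median log2 fold change of -0.63. Their summed level was 20541, 22141 and 12967 CPM in wild-type 1, 3 and 4, and 8990, 14500 and 12838 CPM in DdblGata1 4, 9 and 10, so the genotypes overlapped. DdblGata1 4, lowest for these markers, was the highest of its genotype for most adhesion genes. Wild-type 1, among the highest for these markers, was the lowest of its genotype for most adhesion genes. Some genes with lower values in DdblGata1 did not follow this order. Synpo2 was lowest of all libraries in DdblGata1 4 (218 CPM), and Flna (5520 CPM) and Itga7 (37.5 CPM) were highest in wild-type 1. Pericyte markers (6 of 7 measured; Higd1b has no row) summed to 1777 to 2334 CPM in wild-type and 1377 to 1476 CPM in DdblGata1 libraries, and 5 of 6 had lower values. Of the 9 fibroblast markers, 7 had higher and 2 lower values in DdblGata1, at a median log2 fold change of 0.17. By edgeR 0 of these 9 had an unadjusted p under 0.05. Several genes of the set, among them Itga7, Itga8, Csrp1, Flna and Synpo2, are also made by smooth muscle cells and pericytes. The part of these cells in the adhesion gene differences was not tested, and in bulk RNA fewer cells of a type and less RNA per cell cannot be told apart. Endothelial markers (8 of 8 measured) summed to 65.7 to 86.2 CPM in wild-type and 116 to 171 CPM in DdblGata1 libraries, without overlap, but 5 of the 8 had lower values. The difference in the sum was that of Tek: without it the sums were 29.6 to 37.0 and 20.5 to 34.5 CPM. Markers of interstitial cells of Cajal (4 of 4 measured) summed to 408 to 618 and 199 to 441 CPM, and those of enteric glia (5 of 5) to 83.9 to 230 and 99.2 to 178 CPM. No measured marker of any list was at 0 in a library.

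Other genes of the adhesion pathway, taken from lists apart from the 45, were described by the same unadjusted p under 0.05 in edgeR, which 4.23% of all genes met on the lower and 6.03% on the higher side. Of 37 regulators and signalling genes, 0 were lower and 5 higher (median log2 fold change 0.11). The 4 with the smallest p were Rock1 and Rock2, kinases that drive contraction (0.51 ± 0.17 and 0.58 ± 0.20, SE), Asap1, a GTPase regulator at adhesions (0.53 ± 0.18), and Ptpn12, a phosphatase of p130Cas (0.58 ± 0.21, and 0.32 ± 0.12 in long coding transcripts). These 4, picked by their p, were higher in every DdblGata1 library than in any wild-type library. Of the 37 genes, 8 separated that way, where 8.98% of all genes did, and 1 on the lower side, where 7.34% did. Of 33 other plaque and stress-fibre genes, 5 were lower and 2 higher, and the median was -0.23. Among them Palld, the actin scaffold palladin, had -0.53 ± 0.17 over all transcripts and -0.19 ± 0.26 in long coding transcripts, which were 12.2% of its TPM. Pdlim3 had -0.71 ± 0.25, Sorbs2 -0.55 ± 0.20 and Actn3 0.76 ± 0.25.

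Partners of integrins at the cell surface and in the matrix moved in both directions. Of 14 integrin-associated membrane proteins 1 was lower and 3 higher: the tetraspanin Cd151 had -0.39 ± 0.15 (SE), and Cd47, Adam12 and Adam9 had 0.59 ± 0.18, 0.84 ± 0.33 and 0.38 ± 0.16. Of 29 matrix ligands 4 were lower and 4 higher, against 4.23% and 6.03% of all genes. The thrombospondin genes Thbs1 (1.05 ± 0.30) and Thbs2 (-0.46 ± 0.15) had opposite signs and were called in those directions by DESeq2 but not by edgeR. Lama2, a laminin chain, had 0.49 ± 0.16 and Tgfbi -0.54 ± 0.18. Of 9 measured integrin subunits outside the set, which are mostly those of leukocytes, platelets and epithelium, 0 had an unadjusted p under 0.05, and their counts per library did not exceed 160.

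On GRCm38, Actn1 (ENSMUSG00000015143) lies on chromosome 12 from 80167547 to 80260371, Csrp1 (ENSMUSG00000026421) on chromosome 1 from 135720061 to 135752232 and Flna (ENSMUSG00000031328) on chromosome X from 74223461 to 74249820. Vcl (ENSMUSG00000021823) lies on chromosome 14 from 20929398 to 21033676, Itga9 (ENSMUSG00000039115) on chromosome 9 from 118606690 to 118901003 and Itgb1 (ENSMUSG00000025809) on chromosome 8 from 128685654 to 128733200. Tgfb1i1 (ENSMUSG00000030782) lies on chromosome 7 from 128246812 to 128255699, Itga7 (ENSMUSG00000025348) on chromosome 10 from 128933818 to 128958282, Fhl2 (ENSMUSG00000008136) on chromosome 1 from 43123074 to 43196984 and Lima1 (ENSMUSG00000023022) on chromosome 15 from 99778470 to 99875456. These are whole-gene spans of GENCODE M21.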

How the data were processed

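The gene table that the authors deposited has whole-number values, which are rounded estimated counts (expected counts). Of its values, 99.7% equalled length-scaled sums of the deposited transcript values within 1% plus 1 count, and 26.2% equalled plain sums, so its values were taken as scaled by transcript length but not by library. Each of its 15238 genes reaches 10 counts in 3 or more libraries. The deposited transcript files list, per the file headers, TPM, estimated counts (expected counts) and, as other values, lengths and effective lengths for 115270 transcripts, of which 113580 were assigned to genes of GENCODE M21. Size factors (a ratio) and 2 surrogate variables (a score) come from the deposited sample sheet. Per the submitters' processing notes, kallisto, DESeq2, R 4.2.2 and bcl2fastq 2.2 were used, with the builds GRCm38.p6 and mm10; the step of each tool was not given in the sources used here. Per the labels' protocols, the library kit was stranded and each library took 100 ng of RNA.

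Genes were tested over the whole table with edgeR 4.0.16 under R 4.3.3, without covariates, by a robust quasi-likelihood fit after TMM scaling, with Benjamini-Hochberg adjustment and a threshold of 0.05; filterByExpr removed 0 genes. The SE of a fold change is its size divided by the square root of F. CPM were scaled by TMM. Self-tests on simulated data were run for the edgeR, DESeq2, limma-voom and transcript-usage tests. The numbers of genes that the gene tests recovered are not given here. A planned test of transcript usage missed most of the changed genes in simulated data and is not reported, so transcript shares are descriptions, and the choice of transcripts to name followed from their values.

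The 45 genes and all lists were chosen with earlier results of these data known. Library values are given for genes of the set at an unadjusted p under 0.05 and for Itgb1, Itgav, Tln1, Vcl, Ptk2, Ilk and Srf, and up to 4 genes per other pathway list are named by smallest p. Itga11 and Itgb4 were added after their values were seen. Alternatives were DESeq2 1.42.0, limma-voom (limma 3.58.1), RLE size factors, other count filters, the deposited surrogate variables as covariates, and leaving out each library. DESeq2 without each library, plain transcript sums and transcripts with at least 50% of the longest coding sequence were added after the data were seen.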

Additional observations from a re-analysis of the deposited data

How the results depend on the processing

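No paired analysis was possible because the labels give no pairing between wild-type and DdblGata1 libraries. The direction of Actn1, Csrp1, Flna, Tgfb1i1, Itga7, Fhl2, Vcl, Itga9, Itga8, Ilk and Lima1 was the same in all 21 alternatives run. Leaving out every gene filter gave the values of the reported fit, since the filter removed 0 genes. DESeq2 called 214 genes and 2 of the 45, and on long coding transcripts 266 genes and 3 of the 45. Without single libraries, edgeR called 0 to 1 genes and 0 of the 45, and DESeq2 106, 239 and 165 genes without wild-type 1, 3 and 4 and 1025, 84 and 43 without DdblGata1 4, 9 and 10 (0 to 7 of the 45). Genes of the set at an unadjusted p under 0.05 then numbered 5 to 15 in edgeR and 6 to 16 in DESeq2. Of these, 4 to 15 were lower and 0 to 1 higher in edgeR, and 5 to 16 lower and 0 to 1 higher in DESeq2. The lower end came without DdblGata1 10 (edgeR) or wild-type 3 (DESeq2), the upper end without DdblGata1 4. The share of all genes lower at that p in edgeR moved too. It was 2.47% without DdblGata1 10, 3.87% without wild-type 3 and 8.2% without DdblGata1 4, against 4.23% with all libraries. Shares of all genes at that p in the DESeq2 fits and with the surrogate variables are not given here. Higher genes numbered 3 with the surrogate variables and 0 with plain transcript sums and with long coding transcripts, by edgeR or DESeq2. The median ran from -0.29 to -0.092 in edgeR and from -0.30 to -0.097 in DESeq2 when single libraries were left out. Near 0, signs turned. Itgav had 0.20 with plain sums and 0.22 with long coding transcripts (edgeR and DESeq2). Itgb1 had -0.0014 with DESeq2 and with RLE size factors, -0.10 with the surrogate variables, -0.098 to 0.079 in edgeR without single libraries, and in DESeq2 -0.088, -0.029 and -0.047 without wild-type 1, DdblGata1 9 and DdblGata1 10. Ptk2 ranged from -0.27 to 0.17 in edgeR and from -0.26 to 0.16 in DESeq2 without single libraries, positive without wild-type 3. Tln1 had 0.0074 with limma-voom, -0.20 to 0.10 in edgeR without single libraries, and in DESeq2 0.096, 0.082, 0.034 and 0.082 without wild-type 3, wild-type 4, DdblGata1 9 and DdblGata1 10. The cause of these moves was not tested. Alternatives for transcript usage were not run, since that test is not reported. The lowest estimated count of any of the 45 genes in a library was 246, for Itgb4 in DdblGata1 10.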
